A study of Brachypodium distachyon with 12 samples.

Results

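The subject is the change with age that differed between the organs of the grass Brachypodium distachyon, a model plant for cereal biology. Each gene has a change between week 2 and week 4 in either organ. The interaction is the root change minus the shoot change, in log2 units. A positive interaction therefore means a more positive change in roots, and a negative interaction a more negative change in roots. The members are the genes whose interaction was called, that is, had a Benjamini-Hochberg adjusted p under 0.05 in edgeR's quasi-likelihood test. They numbered 2254 of the 26463 genes tested, out of 39068 in the deposited table, and all 12 libraries of the series entered the fit.

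All plants were wild type Bd21-3, an inbred line, grown without treatment in hydroponic vessels. The groups were whole roots at week 4 and at week 2 and shoots at week 4 and at week 2, with 3 libraries of messenger RNA in each. The replicates came from different plants. The plants harvested at week 4 are not those harvested at week 2, so age and harvest cannot be told apart. In whole organs, fewer cells of a type and less RNA per cell cannot be told apart either.

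Plastids carry out photosynthesis in leaves, and roots hold non-green plastids that can turn green. Chlorophyll is made in the plastid from glutamate through a chain of tetrapyrroles, with a branch to magnesium-containing intermediates, and it is held by chlorophyll a-b binding proteins around the photosystems. Plastids also translate their own small set of genes on ribosomes of bacterial type, most of whose proteins are encoded in the nucleus. Leaves of grasses grow from dividing cells at the base of the shoot, while roots keep dividing cells at each tip.

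Each library held 20773281 to 23676944 counts in week 4 roots, 17261299 to 23116808 in week 2 roots, 20964844 to 24119000 in week 4 shoots and 20044972 to 24186744 in week 2 shoots. Levels are given below as counts per 1000000 (CPM) on library sizes scaled by TMM, with no correction for gene length. Root markers followed the organ labels: the summed level of 14 genes of root cap and endodermis was 715 to 892 CPM in week 4 roots, 719.8 to 869.5 CPM in week 2 roots, 4.18 to 5.07 CPM in week 4 shoots and 4.74 to 6.53 CPM in week 2 shoots. Without week 4 shoot replicate 1, 3542 genes were called in the interaction.

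The interaction test called 8.52% of the genes tested. The change was more positive in roots for 1737 genes (6.56%) and more negative in roots for 517 (1.95%). Most of the 1737 were genes that fell in shoots and were not called in roots (876), or rose in roots and were not called in shoots (484). Another 84 fell in both organs, less in roots, 38 rose in both organs, more in roots, and 27 were called in neither organ. Among the 517, 396 rose in shoots and were not called in roots, 68 fell in roots and were not called in shoots, 13 rose in both and 12 were called in neither. Opposite changes, called in both organs as well as in the interaction, were seen in 228 genes that rose in roots and fell in shoots (0.862%) and in 28 that fell in roots and rose in shoots (0.106%). Over all genes tested the median interaction was 0.11, and the values below were not corrected for it.

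The total of 2254 calls depended on single libraries. Leaving out week 4 root replicate 2 gave 1323, leaving out week 2 root replicate 2 gave 1422, and leaving out replicate 1 or 2 of the week 2 shoots gave 1434 or 1318. The 228 genes with a rise in roots and a fall in shoots numbered 155 to 216 with any 1 library left out. The 28 of the other direction numbered 11, 14 and 57 when replicates 1, 2 and 3 of the week 4 roots were left out in turn, and 13 and 18 for replicates 1 and 2 of the week 2 roots.

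Gene functions were taken from the deposited descriptions, and keywords sorted the genes into 55 classes. The share of tested members called was compared with the 8.52% of all genes, and classes of at least 10 tested members with a share of at least 2 times that, 17.04%, are described in depth. There were 10 such classes. Just inside this limit were the subtilisin-like proteases with 17.8% of 45 tested members, and just outside it the homeobox factors with 16.9% of 83 and the ABC transporters with 16.7% of 126. The plot of shares by class shows 5 plastid classes at the top, from 66.7% to 42.5%.

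**Figure D1:**
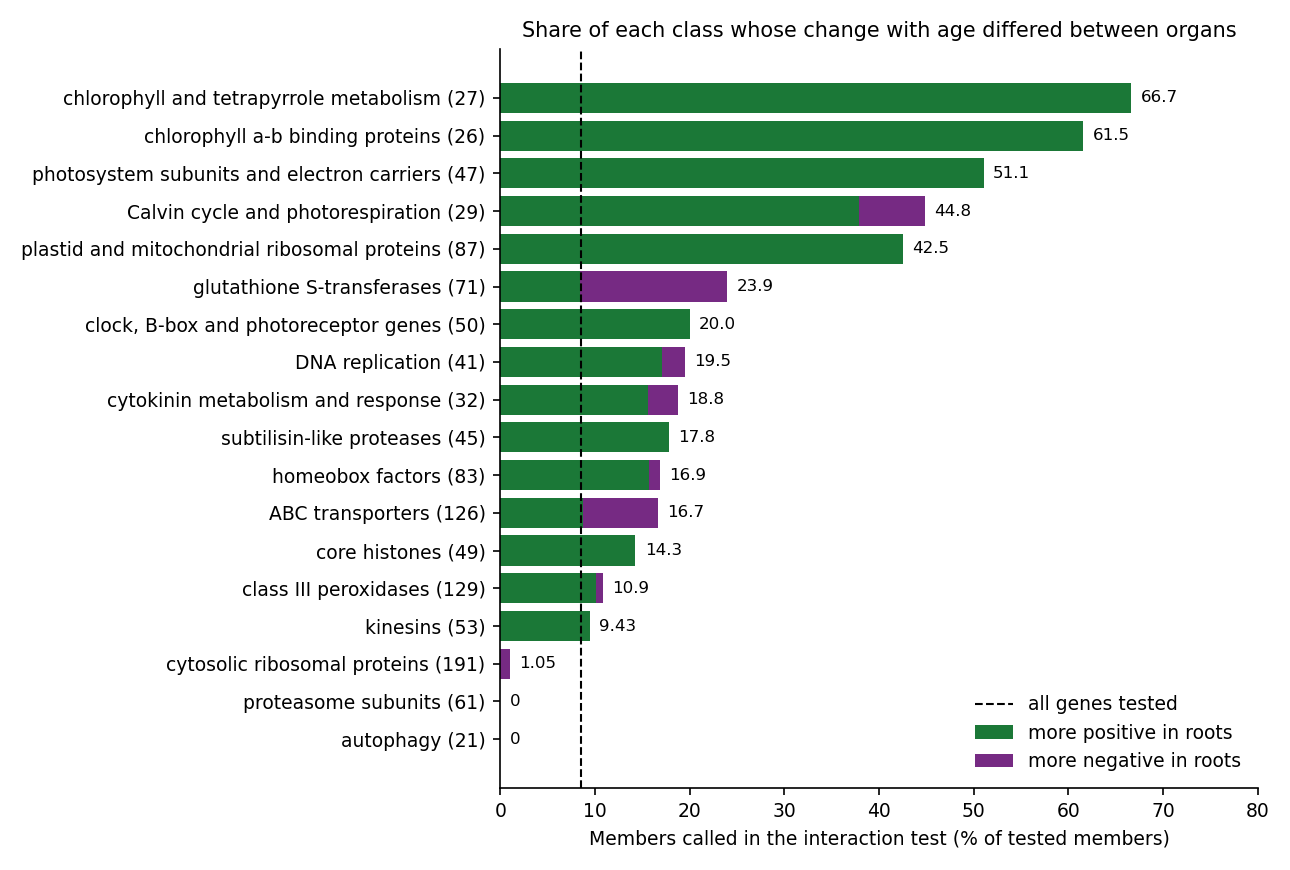
Percent of the tested members of each class that were called in the interaction test, split into members with a more positive change in roots (green) and a more negative change in roots (purple); the number of tested members stands in brackets and the dashed line marks the 8.52% of all genes tested. The 5 plastid classes lie between 42.5% and 66.7%, while cytosolic ribosomal proteins lie at 1.05% and proteasome subunits and autophagy genes at 0.

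The plastid classes moved in opposite ways in the organs or rose in roots alone. Joined, chlorophyll and tetrapyrrole metabolism, chlorophyll a-b binding proteins, photosystem subunits and electron carriers, the Calvin cycle with photorespiration, and the organelle ribosomal proteins held 213 tested genes, of which 103 had a more positive change in roots and 2 a more negative one. Of the 213, 124 rose and 31 fell in roots, against 12.4% and 6.35% of all genes tested. In shoots 10 rose and 70 fell, against 14.5% and 19.4% of all genes tested. Their median log2 change was 0.63 in roots and -0.20 in shoots, against 0.05 and 0 over all genes tested. Without any 1 library the number called in the interaction stayed between 87 and 113. The 31 falls in roots were 12, 14, 12 and 20 when replicates 1 and 2 of the week 4 roots and replicates 1 and 2 of the week 2 roots were left out in turn. The 10 rises in shoots were 21 without week 2 root replicate 1, and 6 when replicate 2 of the shoots of either week was left out.

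The pattern extended to plastid proteins beyond these classes. Genes whose name contains "chloroplastic" made up 5.02% of the genes tested, 23.8% of the 1737 genes whose change was more positive in roots and 5.42% of the 517 whose change was more negative there. They made up 46.1% of the 228 genes that rose in roots and fell in shoots, 105 genes in all. Of 1190 such genes outside the 5 classes, 321 had a more positive and 26 a more negative change in roots, and 65 rose in roots and fell in shoots. Genes named for the mitochondrion gave 14 and 14 of 474, a share of 5.91%, below that of all genes.

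**Figure D2:**
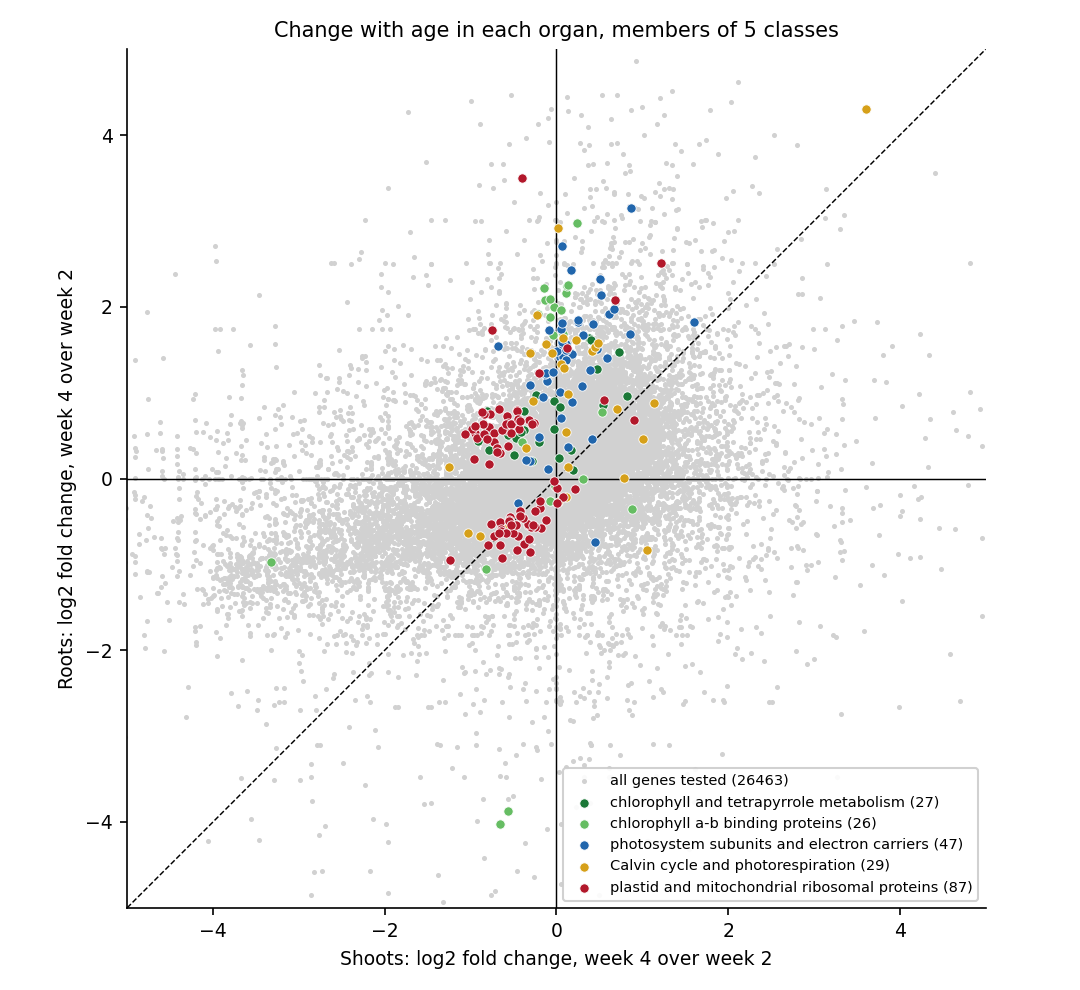
Log2 fold change of week 4 over week 2 in roots (vertical axis) against that in shoots (horizontal axis) for all genes tested (grey) and the members of 5 classes (coloured); on the dashed line both organs changed alike, and 201 genes lie beyond the axes. Most chlorophyll a-b binding and photosystem genes lie above 0 in roots and near 0 in shoots, and the ribosomal proteins fall into a group that rose in roots and fell in shoots and a group that fell in both.

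Genes of chlorophyll synthesis rose in ageing roots and many fell in ageing shoots. Of 27 tested members of chlorophyll and tetrapyrrole metabolism, 18 had a more positive change in roots and none a more negative one. In roots 21 rose (77.8%, against 12.4% of all genes tested) and none fell. In shoots 3 rose and 11 fell (11.1% and 40.7%, against 14.5% and 19.4%), and 10 were called in opposite directions. The median log2 change was 0.57 in roots and -0.20 in shoots. The 10 opposite calls were 6 when replicate 3 of the week 4 roots, or replicate 1 or 2 of the week 2 roots, was left out.

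The early steps also serve heme synthesis. Of 12 genes for steps up to protoporphyrin, 7 rose in roots, 7 fell in shoots and 6 did both with a called interaction. Glutamate-1-semialdehyde aminomutase (BdiBd21-3.3G0545200, chromosome 3, 43153505 to 43156299), which makes the first dedicated precursor, had 117, 112 and 125 CPM in week 4 roots, against 87.8, 94.8 and 99.1 CPM in week 2 roots. In shoots it had 234, 234 and 219.7 CPM at week 4, against 385, 408 and 388 CPM at week 2. The weeks did not overlap in either organ, and they moved in opposite directions. The interaction was 1.11 (SE 0.12, adjusted p = 0.000716), with a shoot change of -0.78 (adjusted p = 0.000198) and a root change of 0.33 (adjusted p = 0.0195). The root call did not hold when replicate 1 or 3 of the week 4 roots or replicate 1 or 2 of the week 2 roots was left out (adjusted p up to 0.0721).

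Uroporphyrinogen decarboxylase 2 (BdiBd21-3.1G0852200, chromosome 1, 62930918 to 62935136), a later enzyme of the same stretch, had 78.5, 80.6 and 79.0 CPM in week 4 roots, against 50.0, 58.3 and 59.7 CPM in week 2 roots. Its shoot levels were 132, 139 and 128 CPM at week 4, against 195, 198 and 195 CPM at week 2. Again all 4 ranges were separate, and the interaction was 1.07 (SE 0.12, adjusted p = 0.000747). Porphobilinogen deaminase (BdiBd21-3.3G0066700), given like the other class members below that are not in the naming rule as an example chosen after its values were seen, averaged 73.0 ± 10.0 CPM in week 4 roots, against 53.8 ± 8.09 CPM in week 2 roots. In shoots it averaged 114 ± 6.4 CPM at week 4 and 215 ± 14.4 CPM at week 2 (SD, n = 3 in each group). Glutamyl-tRNA reductase 1 (BdiBd21-3.3G0395400), the regulated entry step, did not show the shoot fall: it had 784 ± 136 CPM in week 4 shoots, against 539 ± 94.9 CPM in week 2 shoots (adjusted p = 0.0509), and its interaction was 0.32 (adjusted p = 0.527).

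Of 10 genes for the magnesium and chlorophyll steps, 9 rose in roots and had a called interaction, and 4 of them fell in shoots. Magnesium chelatase, which inserts the magnesium, has 3 subunits. The I subunit (BdiBd21-3.1G0660000) averaged 95.6 ± 3.58 CPM in week 4 roots, against 55.3 ± 13.7 CPM in week 2 roots, and 263 ± 15.5 CPM in week 4 shoots, against 459 ± 17.8 CPM in week 2 shoots, an interaction of 1.60 (SE 0.21, adjusted p = 0.00166). The H subunit (BdiBd21-3.1G0251200) averaged 532 ± 24.5 CPM in week 4 roots, against 284 ± 29.7 CPM in week 2 roots, but 1696 ± 216 CPM in week 4 shoots, against 1725 ± 279 CPM in week 2 shoots, an interaction of 0.93 (SE 0.21, adjusted p = 0.0221). The D subunit (BdiBd21-3.1G0057100) averaged 61.6 ± 1.44 CPM in week 4 roots, against 41.7 ± 2.63 CPM in week 2 roots, and 243 ± 18.4 CPM in week 4 shoots, against 316 ± 19.4 CPM in week 2 shoots, an interaction of 0.95 (SE 0.13, adjusted p = 0.00174). The I and D subunits were called in both organs and the H subunit in roots, and differences between the subunits were not tested.

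Divinyl chlorophyllide a 8-vinyl-reductase (BdiBd21-3.1G0843600, chromosome 1, 62282216 to 62283578), which reduces a side chain of the pigment, had 13.5, 13.6 and 12.9 CPM in week 4 roots, against 7.78, 8.16 and 7.25 CPM in week 2 roots. It had 52.1, 63.9 and 57.8 CPM in week 4 shoots, against 74.2, 81.5 and 70.7 CPM in week 2 shoots. The weeks were apart in both organs, with an interaction of 1.17 (SE 0.14, adjusted p = 0.000971). Chlorophyllide a oxygenase (BdiBd21-3.2G0789800), which makes chlorophyll b, rose in roots to 26.9 ± 1.95 CPM, against 8.65 ± 1.61 CPM at week 2 (log2 1.64, adjusted p = 0.000391), and had a shoot change of 0.37 (adjusted p = 0.0739).

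Genes of chlorophyll breakdown rose in roots. All 4 tested, pheophytinase, pheophorbide a oxygenase and 2 stay-green genes, rose in roots, 2 of them rose in shoots too, and 1 had a called interaction. Pheophorbide a oxygenase (BdiBd21-3.1G1005300), which opens the ring, averaged 23.1 ± 4.74 CPM in week 4 roots, against 11.9 ± 0.498 CPM in week 2 roots, and 101 ± 12.4 CPM in week 4 shoots, against 57.3 ± 9.97 CPM in week 2 shoots. Its interaction was 0.14 (SE 0.22, adjusted p = 0.763).

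Proteins of the plastid ribosome rose in roots and fell in shoots. Of 87 tested organelle ribosomal proteins, 37 had a more positive change in roots, none a more negative one, and 32 rose in roots and fell in shoots. Members named chloroplastic differed from the 5 named mitochondrial, and the rest of the 87 carried neither name. Of 49 named chloroplastic, 35 were called, 34 rose in roots, 38 fell in shoots, and the medians were 0.60 in roots and -0.59 in shoots. Of 5 named mitochondrial, 0 were called in the interaction by edgeR, DESeq2 or limma-voom and 0 had an unadjusted p under 0.05 there; 5 fell in roots and 2 in shoots. The count with opposite calls was 27 to 32 with any 1 library left out. Of the 87, 28 fell in roots (32.2%, against 6.35% of all genes tested), 4 of them named chloroplastic and 5 mitochondrial. These 28 were 11 or 14 without replicate 1 or 2 of the week 4 roots and 12 without replicate 1 of the week 2 roots.

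The large-subunit protein L10 of the chloroplast (BdiBd21-3.1G0886800, chromosome 1, 65446313 to 65450062) had 50.6, 45.8 and 47.9 CPM in week 4 roots, against 26.5, 27.5 and 31.8 CPM in week 2 roots. It had 159.8, 163 and 159.5 CPM in week 4 shoots, against 275, 272 and 280.1 CPM in week 2 shoots. The replicates lay close together and the weeks far apart in both organs. The interaction was 1.53 (SE 0.12, adjusted p = 0.000166), from a root change of 0.75 and a shoot change of -0.78. L13 (BdiBd21-3.2G0637600, chromosome 2, 49343785 to 49346374) averaged 57.2 ± 4.73 CPM in week 4 roots, against 37.8 ± 2.38 CPM in week 2 roots, and 220.0 ± 11.1 CPM in week 4 shoots, against 378 ± 6.32 CPM in week 2 shoots, an interaction of 1.38 (SE 0.13, adjusted p = 0.000329). L24 (BdiBd21-3.1G0444800, chromosome 1, 29048278 to 29051457) averaged 56.4 ± 4.71 CPM in week 4 roots, against 32.3 ± 3.23 CPM in week 2 roots, and 199.5 ± 13.3 CPM in week 4 shoots, against 318 ± 0.245 CPM in week 2 shoots, an interaction of 1.48 (SE 0.14, adjusted p = 0.000369).

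All 35 called members named chloroplastic had a positive interaction, and 31 of them were called as rises in roots and falls in shoots. Summed over the class, the level was 2619, 2560.3 and 2829 CPM in week 4 roots, against 2254, 2321 and 2444 CPM in week 2 roots. In shoots it was 7999, 8445 and 7881 CPM at week 4, against 12165, 12376 and 12207 CPM at week 2. All week 4 roots lay above all week 2 roots, and all week 4 shoots below all week 2 shoots.

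Most light-harvesting and photosystem genes rose in roots, and few were called in shoots. Of 26 tested chlorophyll a-b binding proteins, 16 had a more positive change in roots and none a more negative one. In roots 17 rose (65.4%, against 12.4% of all genes tested), and in shoots 1 rose and 1 fell (3.85% each, against 14.5% and 19.4%). The median log2 change was 1.45 in roots and -0.07 in shoots. Of 47 tested photosystem subunits and electron carriers, 3 of them in both classes, 24 had a more positive change in roots. In roots 36 rose (76.6%, against 12.4% of all genes tested), and 0 were called in shoots by edgeR, where 4 higher and 3 lower had an unadjusted p under 0.05. In shoots DESeq2 called 1 higher and 1 lower, and limma-voom 6 higher and 2 lower. Without 1 library the photosystem calls in shoots numbered up to 6 higher (without week 2 root replicate 1) and up to 2 lower. The deposited table holds 108 genes of this class, and the rest did not pass the count filter.

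Chlorophyll a-b binding protein 1 (BdiBd21-3.4G0519700, chromosome 4, 42594857 to 42597516), a light-harvesting protein of photosystem II, had 1697, 1598 and 1479 CPM in week 4 roots, against 258, 414 and 521 CPM in week 2 roots. It had 10777, 13472 and 10860.0 CPM in week 4 shoots, against 12841, 12483 and 10404 CPM in week 2 shoots. The root weeks were far apart, the shoot weeks overlapped, and the root level stayed well below the shoot level at both weeks. The interaction was 2.03 (SE 0.34, adjusted p = 0.00531), with a root change of 2.00 (SE 0.25) and a shoot change of -0.03 (SE 0.24, adjusted p = 0.956).

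The photosystem II 22 kDa protein (BdiBd21-3.2G0719000, chromosome 2, 54129814 to 54132942), needed to dissipate excess light energy, had 216, 196 and 169 CPM in week 4 roots, against 62.0, 89.4 and 98.5 CPM in week 2 roots. Its shoot levels were 611, 679.9 and 708 CPM at week 4, against 707, 743 and 739.7 CPM at week 2, and overlapped. The interaction was 1.35 (SE 0.22, adjusted p = 0.00527). The photosystem I proteins named chlorophyll a/b-binding protein 5 (BdiBd21-3.3G0767600) and 6 (BdiBd21-3.4G0439300) had interactions of 1.24 (SE 0.19, adjusted p = 0.00316) and 1.34 (SE 0.23, adjusted p = 0.00668). The first averaged 21.4 ± 1.80 CPM in week 4 roots, against 9.73 ± 2.13 CPM in week 2 roots, and the second 25.4 ± 2.43 CPM in week 4 roots, against 10.9 ± 3.23 CPM in week 2 roots.

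Of the 10 tested chlorophyll a-b binding genes without a called interaction, 5 were early light-inducible proteins of the same superfamily. Chlorophyll a-b binding protein M9 (BdiBd21-3.1G0161800) averaged 0.73 CPM in week 4 roots, against 0.895 CPM in week 2 roots, and 391 CPM in week 4 shoots, against 409.9 CPM in week 2 shoots. By complex, 10 of 17 photosystem I genes, 12 of 21 photosystem II and oxygen-evolving genes and 2 of 9 genes of the cytochrome b6-f complex, plastocyanin and ferredoxin reductase were called. Plastocyanin (BdiBd21-3.1G0697600), the copper carrier between the complexes, rose in roots to 532 ± 115 CPM, against 167 ± 68.4 CPM at week 2, with an interaction of 1.36 that was not called (SE 0.39, adjusted p = 0.0541). Chlorophyll a-b binding and Rubisco small-subunit genes are near-identical copies in grasses, and the sources used here do not say how shared reads were counted, so the split among copies is uncertain.

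**Figure D3:**
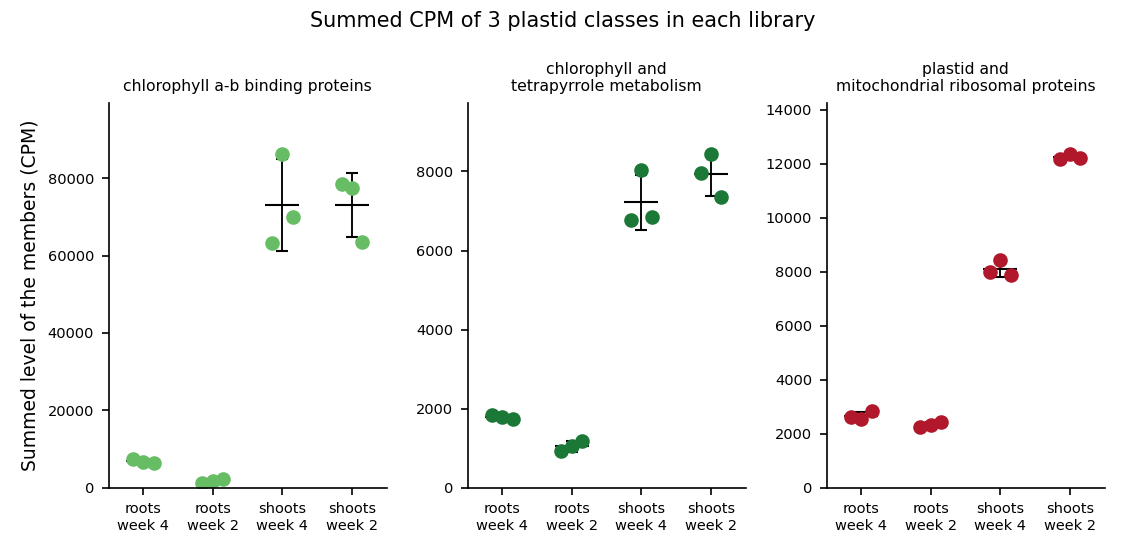
Summed level in CPM of all members of 3 plastid classes in each library (points, 3 per group), with the group mean and SD (black). Chlorophyll a-b binding proteins lie between 6411 and 7332 CPM in week 4 roots, above the 1119 to 2299 CPM of week 2 roots, and overlap between the shoot weeks, while the organelle ribosomal proteins are separate between weeks in both organs and in opposite directions.

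Calvin cycle genes also rose in roots. Of 29 tested members of the Calvin cycle and photorespiration, 11 had a more positive and 2 a more negative change in roots. In roots 16 rose and 3 fell (55.2% and 10.3%, against 12.4% and 6.35% of all genes tested). In shoots 5 rose and 3 fell (17.2% and 10.3%, against 14.5% and 19.4%), and the share of rises there was close to that of all genes. The positive count was 6 or 7 when replicate 1 or 2 of the week 2 shoots was left out, and 7 for replicate 1 of the week 4 roots or replicate 2 of the week 2 roots. The 3 falls in roots were 0 or 1 without replicate 1 or 2 of the roots of either week. The 5 rises in shoots were 8 without week 2 root replicate 1, and 3 when replicate 1 of the shoots of either week or replicate 2 of the week 2 shoots was left out. Sedoheptulose-1,7-bisphosphatase (BdiBd21-3.2G0705400, chromosome 2, 53336720 to 53340013), an enzyme that regenerates the carbon dioxide acceptor, had 113, 99.1 and 96.8 CPM in week 4 roots, against 20.8, 38.2 and 45.1 CPM in week 2 roots. In shoots it had 744, 933 and 971 CPM at week 4, against 1066, 1006 and 809.6 CPM at week 2. The root weeks were separate and the shoot weeks overlapped, giving an interaction of 1.69 (SE 0.33, adjusted p = 0.0114).

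Glyceraldehyde-3-phosphate dehydrogenase A (BdiBd21-3.5G0155400) averaged 791 ± 82.7 CPM in week 4 roots, against 288 ± 104 CPM in week 2 roots, and 5086 ± 599.8 CPM in week 4 shoots, against 6296 ± 1038 CPM in week 2 shoots, an interaction of 1.77 (SE 0.36, adjusted p = 0.0128). The H protein of glycine cleavage (BdiBd21-3.3G0400800), a mitochondrial protein of photorespiration, averaged 96.8 ± 4.60 CPM in week 4 roots, against 51.8 ± 8.69 CPM in week 2 roots, and 519 ± 22.2 CPM in week 4 shoots, against 625 ± 29.4 CPM in week 2 shoots, an interaction of 1.17 (SE 0.17, adjusted p = 0.00261). Of 6 Rubisco small-subunit genes 4 were called, all from rises in roots. The 2 negative calls were both D-3-phosphoglycerate dehydrogenases, enzymes of serine synthesis that the keywords placed here. The one numbered 2 (BdiBd21-3.3G0490200) had 207 ± 14.5 CPM in week 4 roots, against 206 ± 10.8 CPM in week 2 roots, and rose in shoots to 768 ± 98.2 CPM, against 444 ± 59.0 CPM at week 2. Another gene of this name (BdiBd21-3.1G0419100) had a positive interaction of 0.72 (SE 0.19, adjusted p = 0.039). The negative calls numbered 0 or 1 when replicate 1 or 2 of the roots of either week, or replicate 2 of the week 2 shoots, was left out.

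Photosynthesis genes, taken as markers of leaf tissue, were higher in the week 4 root libraries. The chlorophyll a-b binding proteins stood in roots at 9.31% of the shoot level at week 4 and 2.39% at week 2. A wider list of 111 genes, matched by photosynthesis keywords as leaf mesophyll markers, overlaps the classes above. It summed to 12406 to 14659 CPM in week 4 roots and 2300.0 to 5152 CPM in week 2 roots. Of its 60 tested genes, 37 had a more positive change in roots. In shoots the list summed to 117668 to 155936 CPM at week 4 and 116492 to 141427 CPM at week 2. Of the 111, 39 were at 0 in week 4 roots and 43 in week 2 roots, while 26 were at 0 in week 4 shoots and 25 in week 2 shoots. Another 15 shoot genes were chosen after the values were seen. They had at most 3 counts in all week 2 roots and at least 50 CPM in shoots of either week. In week 4 roots these 15 stood at 0.11% of the shoot level, with 166 counts in all. In week 2 roots they stood at 0.0184%, with 24 counts, a level that the choice itself kept low. Single genes gave 52, 50 and 35 of the 166 counts. Any part of shoot tissue carried into the root libraries was not tested.

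Of 50 tested clock, B-box and photoreceptor genes, which time the day and sense light, 10 had a more positive change in roots and none a more negative one, 24 rose and 1 fell in roots (48% and 2%, against 12.4% and 6.35% of all genes tested), and 18 rose and 7 fell in shoots (36% and 14%, against 14.5% and 19.4%). Among the 10, 5 fell in shoots and were not called in roots, and 2 rose in roots and were not called in shoots. The 10 numbered 6 without week 4 root replicate 1 or week 2 shoot replicate 2, and the 18 rises in shoots were 10 to 12 without replicate 2 or 3 of the shoots of either week. The sources used here do not give the hour of harvest. The pseudo-response regulator PRR1 (BdiBd21-3.3G0649000, chromosome 3, 50260007 to 50263070), the evening clock gene known as TOC1 in Arabidopsis, had 143, 139 and 134 CPM in week 4 roots, against 114, 124 and 117 CPM in week 2 roots. It had 49.8, 45.2 and 46.7 CPM in week 4 shoots, against 123, 117 and 96.1 CPM in week 2 shoots. Shoots at week 4 were the low group, and the root weeks were apart but close, with a root change of 0.23 that was not called (adjusted p = 0.12). The interaction was 1.48 (SE 0.14, adjusted p = 0.000369).

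CONSTANS-LIKE 9 (BdiBd21-3.1G0561000, chromosome 1, 41206128 to 41212731), a zinc finger protein of the family of the flowering regulator CONSTANS, had 82.7, 86.5 and 78.0 CPM in week 4 roots, against 63.2, 68.0 and 72.3 CPM in week 2 roots. It had 67.9, 90.0 and 76.2 CPM in week 4 shoots, against 255, 209 and 170.1 CPM in week 2 shoots, where it fell by 1.44 on the log2 scale. The interaction was 1.72 (SE 0.20, adjusted p = 0.000982). PRR95 (BdiBd21-3.4G0353400, chromosome 4, 30357545 to 30363339), another pseudo-response regulator of the clock, was the reverse case. It rose in roots to 157, 166 and 155 CPM, against 86.8, 86.7 and 88.0 CPM at week 2, while its shoot levels of 178, 245 and 235 CPM at week 4 and 240.4, 207 and 193 CPM at week 2 overlapped. Its interaction was 0.83 (SE 0.17, adjusted p = 0.0147).

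A phytochrome A gene (BdiBd21-3.1G0140900), encoding the photoreceptor for far-red light, was abundant in roots, with 44.5 ± 6.50 CPM at week 4 and 34.5 ± 2.63 CPM at week 2. It fell in shoots to 0.643 ± 0.213 CPM, against 3.86 ± 2.01 CPM at week 2, an interaction of 2.92 (SE 0.45, adjusted p = 0.00391). Of the class, 14 genes rose in both organs, such as PRR73 (BdiBd21-3.1G0887100), with log2 changes of 0.90 in roots and 0.89 in shoots.

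The cytokinin genes called in the interaction were mostly enzymes. Cytokinins are hormones that promote shoot growth and delay leaf senescence. Of 32 tested genes, 5 had a more positive and 1 a more negative change in roots; 4 rose in roots, and 5 rose and 8 fell in shoots. The 12.5% that rose in roots were close to the 12.4% of all genes tested, and 15.6% rose and 25% fell in shoots, against 14.5% and 19.4%. The 4 were 7 without week 4 shoot replicate 1, and 2 when replicate 2 or 3 of the week 4 roots, replicate 1 of the week 2 roots or replicate 3 of the week 2 shoots was left out. The 8 falls in shoots were 5 when replicate 2 of the week 4 roots or replicate 1 or 2 of the week 2 shoots was left out. Among 17 enzyme genes 5 were called in the interaction, and among 15 response regulators 1 was. The 5 positive calls were 2 without week 4 shoot replicate 3 and 3 without week 4 root replicate 2 or 3 or any 1 of the week 2 shoots, and the 1 negative call was lost without 7 of the 12 libraries.

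LOGL10 (BdiBd21-3.3G0377300, chromosome 3, 30709875 to 30713799), which by its name releases the active cytokinin base from its nucleotide, had 36.7, 48.2 and 36.8 CPM in week 4 roots, against 9.57, 28.0 and 18.7 CPM in week 2 roots. It had 12.7, 6.89 and 5.45 CPM in week 4 shoots, against 26.1, 24.02 and 19.3 CPM in week 2 shoots. The weeks were apart in both organs, the shoot fall was called (adjusted p = 0.0148), and the root change of 1.11 was not (adjusted p = 0.0635). The interaction was 2.58 (SE 0.54, adjusted p = 0.0174). Cytokinin dehydrogenase 3 (BdiBd21-3.3G0380900), which degrades the hormone, averaged 36.3 ± 0.437 CPM in week 4 roots, against 22.1 ± 5.28 CPM in week 2 roots. It averaged 0.64 ± 0.263 CPM in week 4 shoots, against 6.11 ± 1.11 CPM in week 2 shoots, an interaction of 3.94 (SE 0.36, adjusted p = 0.000329). A cytokinin hydroxylase gene (BdiBd21-3.3G0478500), whose enzyme makes the zeatin form, averaged 57.6 ± 7.42 CPM in week 4 roots, against 26.8 ± 11.8 CPM in week 2 roots, and 0.597 ± 0.437 CPM in week 4 shoots, against 1.68 ± 0.157 CPM in week 2 shoots, an interaction of 2.64 (SE 0.63, adjusted p = 0.03). The 1 negative call was LOGL8 (BdiBd21-3.2G0191600), with 3.31 ± 1.02 CPM in week 4 shoots, against 0.605 ± 0.284 CPM in week 2 shoots, and an interaction of -3.61 (SE 0.89, adjusted p = 0.03). The response regulator ORR1 (BdiBd21-3.5G0144800, chromosome 5, 15182531 to 15185829) fell in shoots to 12.8, 15.2 and 11.2 CPM, against 27.1, 31.6 and 26.4 CPM at week 2. Its interaction of 0.79 (SE 0.22, adjusted p = 0.0475) was lost with any 1 library left out (adjusted p up to 0.122), apart from replicate 1 of the week 4 roots and replicate 2 of the week 4 shoots. It was also lost under RLE scaling, TMM within each organ and both other count filters.

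The root cap and endodermis genes, whose low sums in the shoot libraries are given above, had 0 calls in the interaction by edgeR or limma-voom, 2 by DESeq2 and 2 at an unadjusted p under 0.05 in edgeR. Any part of root tissue carried into the shoot libraries was not tested.

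Glutathione S-transferases, enzymes that attach glutathione to reactive compounds, had calls in both directions. Of 71 tested, 11 had a more negative and 6 a more positive change in roots; 8 rose and 6 fell in roots (11.3% and 8.45%, against 12.4% and 6.35% of all genes tested), and 24 rose and 13 fell in shoots (33.8% and 18.3%, against 14.5% and 19.4%). The 8 rises in roots were 2 or 3 without replicate 1 or 2 of the roots of either week, and 5 when replicate 2 or 3 of the week 4 shoots or replicate 1 or 3 of the week 2 shoots was left out. The 6 falls in roots were 1 to 3 without replicate 1 or 2 of the roots of either week. The subfamilies were set apart after their values were seen, and a difference between them was not tested. Of 32 genes named GSTU, the tau class that is expanded in plants, 9 had a more negative and 1 a more positive change in roots, and 13 rose and 2 fell in shoots. Of 12 named GSTF, the phi class, 4 had a more positive change in roots and 7 fell in shoots. The 11 negative calls numbered 8 to 14 with any 1 library left out. The 6 positive ones were 10 without week 4 shoot replicate 1, 3 when replicate 2 of the week 4 shoots, replicate 2 of the week 2 roots or replicate 1 of the week 2 shoots was left out, and 2 for replicate 2 of the week 2 shoots.

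A GSTU6 gene on chromosome 2 (BdiBd21-3.2G0538300, 42149553 to 42150656) had 4.81, 6.27 and 4.93 CPM in week 4 roots, against 12.0, 10.7 and 9.63 CPM in week 2 roots. It had 91.7, 62.8 and 96.2 CPM in week 4 shoots, against 12.5, 9.11 and 10.4 CPM in week 2 shoots. Week 4 shoots stood far above the other 3 groups, and week 4 roots below them. The interaction was -3.98 (SE 0.26, adjusted p = 0.000134), from a root change of -1.01 and a shoot change of 2.97.

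A GSTU6 gene on chromosome 3 (BdiBd21-3.3G0414800, 34135373 to 34136377) rose in shoots to 65.8, 54.9 and 61.5 CPM, against 16.7, 20.1 and 23.5 CPM at week 2. In roots it had 21.7, 23.6 and 24.1 CPM at week 4, against 26.5, 29.4 and 26.8 CPM at week 2, a change of -0.25 that was not called (adjusted p = 0.172). The interaction was -1.85 (SE 0.18, adjusted p = 0.000369). A GSTU1 gene (BdiBd21-3.1G0086800) had an interaction of -2.93 (SE 0.34, adjusted p = 0.00105), and its root fall did not hold when replicate 2 of the week 4 roots or replicate 1 of the week 2 roots was left out (up to 0.0566). On the phi side, GSTF11 (BdiBd21-3.3G0559000) fell in shoots to 1.41 ± 1.06 CPM, against 8.99 ± 1.40 CPM at week 2. In roots it had 7.18 ± 0.628 CPM at week 4 and 9.53 ± 0.918 CPM at week 2, and its interaction was 2.24 (SE 0.53, adjusted p = 0.0251). Several genes named GSTU6 lie close together on chromosome 3, and the split of any shared reads among them is uncertain.

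Of the subtilisin-like proteases, secreted serine proteases, 44.4% fell in shoots, against 19.4% of all genes tested. Of 45 tested, 8 had a more positive change in roots and none a more negative one; 4 rose and 1 fell in roots (8.89% and 2.22%, against 12.4% and 6.35% of all genes tested), and 2 rose and 20 fell in shoots. The 1 fall in roots became 7 without week 4 shoot replicate 1 and 3 without week 4 shoot replicate 2. The 8 were 16 without week 4 shoot replicate 1, 4 when replicate 2 of the week 4 shoots or replicate 1 of the week 2 shoots was left out, and 5 for replicate 3 of the week 4 shoots, replicate 2 or 3 of the week 4 roots or replicate 2 of the week 2 roots. SBT1.8 (BdiBd21-3.4G0575100, chromosome 4, 45690375 to 45695794) had 4.81, 6.05 and 6.91 CPM in week 4 roots, against 8.44, 8.55 and 6.79 CPM in week 2 roots, and these overlapped. It fell in shoots to 2.65, 3.02 and 1.32 CPM, against 18.2, 18.8 and 13.3 CPM at week 2, an interaction of 2.42 (SE 0.38, adjusted p = 0.00369).

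An SBT1.2 gene on chromosome 1 (BdiBd21-3.1G1029600) averaged 45.6 ± 4.05 CPM in week 4 roots, against 48.4 ± 12.3 CPM in week 2 roots, and 8.64 ± 3.79 CPM in week 4 shoots, against 35.1 ± 4.47 CPM in week 2 shoots. Its interaction was 1.93 (SE 0.38, adjusted p = 0.0125). An SBT1.2 gene on chromosome 3 (BdiBd21-3.3G0413300) averaged 8.17 ± 1.58 CPM in week 4 roots, against 8.68 ± 2.15 CPM in week 2 roots, and 4.69 ± 1.70 CPM in week 4 shoots, against 15.8 ± 1.85 CPM in week 2 shoots. Its interaction was 1.66 (SE 0.37, adjusted p = 0.0188).

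Most genes of cell division were lower at week 4 in shoots, and the class median fell by less in roots. Core histones, DNA replication, kinesins, cyclins with their kinases, and tubulins together held 205 tested genes. In shoots 144 fell and 15 rose, in roots 23 fell and 6 rose, and the median log2 change was -1.41 in shoots and -0.57 in roots. Of all genes tested, 19.4% fell and 14.5% rose in shoots, and 6.35% fell and 12.4% rose in roots. In the interaction 27 had a more positive change in roots and 2 a more negative one, 14.1% in all, against 8.52% of all genes tested. Of the 205, 23 fell in both organs and none was called in opposite directions. The 23 falls in roots were 102 without week 4 shoot replicate 1, 46 without week 4 shoot replicate 3, and 5 to 8 without week 4 root replicate 1 or 2 or any 1 of the week 2 roots. The 15 rises in shoots were 5 to 9 when replicate 2 or 3 of the week 4 shoots or replicate 1 or 2 of the week 2 shoots was left out. Cyclins with their kinases, 48 tested, gave 11 of these 15 rises (22.9% of the 48, 3 to 9 genes without any 1 shoot library), while 24 of the 48 fell in shoots. In roots 3 of the 48 rose and 3 fell. Their summed level overlapped between the root weeks, at 1905 to 2003 CPM at week 4 and 1951 to 2088 CPM at week 2.

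How many passed the interaction test turned on single libraries and on the tool. The 27 positive calls of the joined classes were 112 without week 4 shoot replicate 1 and 6 to 19 without any other 1 library. With all 12 libraries limma-voom called 15 DNA replication genes, 32 core histones, 23 kinesins and 16 cyclins with their kinases as more positive in roots, and DESeq2 12, 15, 17 and 8. In edgeR, DNA replication genes, 7 with a more positive and 1 with a more negative change in roots of 41 tested, had 20 and 0 without that library. Core histones had 7 and then 36 positive calls of 49 tested, kinesins 5 and then 28 of 53, and cyclins with their kinases 6 and then 19 of 48. Falls in roots were called for 7 DNA replication genes, for 23 without that library, for 12 without week 4 shoot replicate 3, and for 0 to 2 without week 4 root replicate 1 or 2 or any 1 of the week 2 roots. Leaving out any 1 of 10 other libraries lowered the 7 positive calls of DNA replication to between 0 and 4, the exception being week 4 root replicate 1. For core histones the 7 became 0 to 5 with any 1 of the other 11 libraries left out, and for kinesins the 5 became 1 to 5. With all libraries, edgeR called 19.5% of DNA replication genes, 14.6% of cyclins with their kinases and 14.3% of core histones in the interaction. The 9.43% of kinesins was close to the 8.52% of all genes tested. In roots 17.1% of DNA replication genes fell, against 6.35% of all genes tested.

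Core histones, which package newly made DNA, summed to 1889, 1379 and 1317 CPM in week 4 shoots, against 3415, 3331 and 2982 CPM in week 2 shoots. In roots they summed to 1936, 1861 and 2161 CPM at week 4, against 2597, 2786 and 2636 CPM at week 2. Week 4 shoot replicate 1 was the highest of its group for histones, DNA replication and kinesins, and it still lay below every week 2 shoot.

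**Figure D4:**
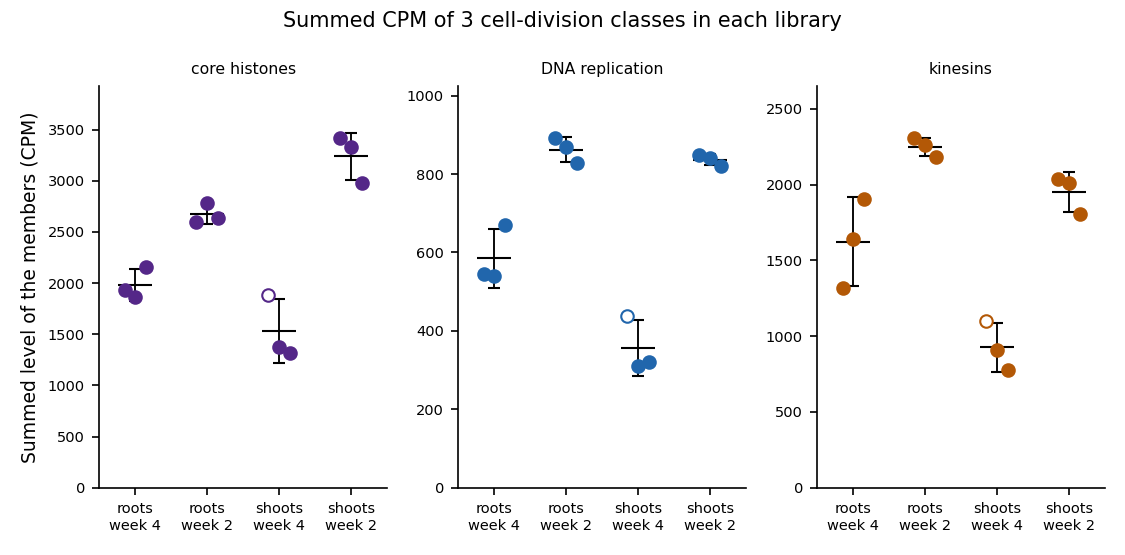
Summed level in CPM of all members of 3 cell-division classes in each library (points, 3 per group), with the group mean and SD (black); the open point is week 4 shoot replicate 1. In each class week 4 lies below week 2 in both organs with no overlap, and the open point is the highest of the week 4 shoots.

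The large subunit of ribonucleoside-diphosphate reductase (BdiBd21-3.1G0636000, chromosome 1, 47228021 to 47232927), which makes the building blocks of DNA, had 34.4, 31.4 and 34.99 CPM in week 4 roots, against 43.8, 49.3 and 47.0 CPM in week 2 roots. In shoots it had 27.3, 19.01 and 17.5 CPM at week 4, against 50.9, 53.8 and 50.9 CPM at week 2. It fell in both organs, more in shoots, with an interaction of 0.81 (SE 0.20, adjusted p = 0.0296). That call was lost with any 1 library left out (adjusted p up to 0.0682), apart from replicate 1 of the week 4 shoots and replicate 3 of the week 2 shoots. The fall in roots (adjusted p = 0.0355) was lost without any 1 root library (up to 0.124).

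The catalytic subunit A of DNA polymerase epsilon (BdiBd21-3.3G0585900, chromosome 3, 45838110 to 45858724) had 22.1, 22.9 and 32.0 CPM in week 4 roots, against 47.1, 44.4 and 42.6 CPM in week 2 roots. It had 11.4, 4.89 and 6.04 CPM in week 4 shoots, against 40.3, 34.1 and 33.1 CPM in week 2 shoots. The interaction was 1.46 (SE 0.36, adjusted p = 0.0324), and it did not hold with any 1 library left out (up to 0.0715), apart from replicate 1 of the week 4 roots, replicates 1 and 2 of the week 4 shoots and replicate 3 of the week 2 shoots. MCM5 (BdiBd21-3.3G0716600, chromosome 3, 54680120 to 54685104), part of the helicase that licenses replication origins, had 14.2, 15.5 and 26.9 CPM in week 4 roots, against 40.8, 39.7 and 31.1 CPM in week 2 roots. It had 6.50, 2.39 and 1.43 CPM in week 4 shoots, against 36.4, 35.7 and 32.5 CPM in week 2 shoots. Its interaction of 2.34 (SE 0.60, adjusted p = 0.0396) was lost without any 1 library other than week 4 shoot replicates 1 and 3, with an adjusted p of up to 0.0852, and was also lost with no low-count filter.

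The genes with the largest interactions under the naming rule included a transcription factor, 2 cytochrome P450 enzymes and a lipoxygenase. The rule took the 5 highest and the 5 lowest of 1666 called and described genes with a mean of at least 1 CPM in every group. The highest was a gene named transcription factor ICE1 (BdiBd21-3.4G0254800, chromosome 4, 18824932 to 18828241), in Arabidopsis a regulator of cold response and stomatal development. It had 6.55, 12.5 and 11.2 CPM in week 4 roots, against 0.612, 1.19 and 3.45 CPM in week 2 roots. In shoots it had 13.5, 5.75 and 3.07 CPM at week 4, against 40.2, 38.9 and 31.6 CPM at week 2. The weeks were apart in both organs, in opposite directions, with an interaction of 4.86 (SE 0.86, adjusted p = 0.00963). The root call (adjusted p = 0.0205) did not hold when replicate 2 of the week 4 roots or replicate 1 or 2 of the week 2 roots was left out (up to 0.0786).

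Cytochrome P450 78A9 (BdiBd21-3.3G0557900, chromosome 3, 43837278 to 43839916), of a family that in Arabidopsis affects organ and seed size, had 9.00, 3.23 and 3.66 CPM in week 4 roots, against 0.481, 0.958 and 1.67 CPM in week 2 roots. In shoots it had 10.5, 9.79 and 4.71 CPM at week 4, against 25.7, 27.5 and 18.8 CPM at week 2. Its interaction was 3.89 (SE 0.69, adjusted p = 0.00842), and the shoot fall did not hold when replicate 3 of the week 4 shoots or replicate 1 or 2 of the week 2 shoots was left out (up to 0.0766).

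The 3 other high interactions were falls in shoots. L-Ala-D/L-amino acid epimerase (BdiBd21-3.2G0031800, chromosome 2, 1691874 to 1695678) fell in shoots to 6.09, 3.02 and 2.07 CPM, against 63.6, 37.3 and 39.1 CPM at week 2. In roots it averaged 422 ± 20.7 CPM at week 4 and 362 ± 32.7 CPM at week 2 (adjusted p = 0.632), and the interaction was 3.85 (SE 0.45, adjusted p = 0.00114). A pumilio homolog (BdiBd21-3.4G0096800, chromosome 4, 5928817 to 5931649), of a family that binds messenger RNA, fell in both organs. It averaged 6.07 ± 3.02 CPM in week 4 roots, against 17.6 ± 3.63 CPM in week 2 roots, and 5.07 ± 0.997 CPM in week 4 shoots, against 173 ± 50.3 CPM in week 2 shoots, an interaction of 3.55 (SE 0.49, adjusted p = 0.00262). Its root call was lost without week 4 root replicate 2 (adjusted p = 0.054).

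Nucleobase-ascorbate transporter 6 (BdiBd21-3.3G0473400) fell in shoots to 3.21, 0.171 and 0.265 CPM, against 23.8, 21.3 and 21.4 CPM at week 2. Within the week 4 shoots replicate 1 was far above the other libraries. The interaction of 3.34 (SE 0.84, adjusted p = 0.0386) was lost without any 1 library other than that replicate, with an adjusted p of up to 0.0837, and also with no low-count filter.

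At the negative end, lipoxygenase 8 and cytochrome P450 94C1 belong to jasmonate metabolism: lipoxygenases of this kind begin the synthesis of the wound hormone, and CYP94C1 oxidises its active conjugate in Arabidopsis. Lipoxygenase 8 (BdiBd21-3.3G0527200, chromosome 3, 42171380 to 42176999) had 1.33, 1.202 and 0.968 CPM in week 4 roots, against 13.0, 4.79 and 3.14 CPM in week 2 roots. It had 143, 57.0 and 69.4 CPM in week 4 shoots, against 8.80, 28.5 and 33.0 CPM in week 2 shoots. The weeks were apart in both organs, in opposite directions, although the replicates spread widely. The interaction was -4.51 (SE 0.92, adjusted p = 0.0177), and it was lost under limma-voom. Both organ calls were lost with no low-count filter, and the root call also under limma-voom. The root call was lost without any week 4 root or week 2 root replicate 1 (adjusted p up to 0.135), and the shoot call when replicate 1 or 3 of the week 4 shoots or replicate 1 or 2 of the week 2 shoots was left out (up to 0.104).

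CYP94C1 (BdiBd21-3.4G0590800, chromosome 4, 46695689 to 46697547) rose in shoots to 41.3, 38.1 and 47.7 CPM, against 11.9, 3.72 and 2.75 CPM at week 2, and its root levels overlapped, at 13.1, 11.7 and 24.6 CPM at week 4 and 74.0, 18.6 and 21.6 CPM at week 2. The interaction of -4.00 (SE 0.92, adjusted p = 0.0278) did not hold without replicate 1 or 2 of the week 4 roots, or replicate 2 or 3 of the shoots of either week (up to 0.0726). The shoot rise (adjusted p = 0.0109) was lost without week 2 shoot replicate 2 (adjusted p = 0.0501). In the whole jasmonate and TIFY class, 5 of 45 tested genes had a more negative and 2 a more positive change in roots, a share of 15.6%.

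The other 2 of the 5 lowest interactions, beside the GSTU6 gene of chromosome 2, were rises in shoots. A mitochondrial valine-tRNA ligase (BdiBd21-3.3G0398700, chromosome 3, 32517706 to 32526135), which loads valine for protein synthesis, rose in shoots to 62.1, 17.4 and 85.4 CPM, against 2.11, 0.883 and 2.42 CPM at week 2. In roots it had 12.1, 10.7 and 9.47 CPM at week 4, against 6.16, 6.09 and 6.08 CPM at week 2, a change that was not called (adjusted p = 0.264), and the interaction was -4.12 (SE 0.72, adjusted p = 0.00873), a call lost under limma-voom. A gene with an FCS-type zinc finger (BdiBd21-3.1G0973300) rose in shoots to 25.9, 15.2 and 35.7 CPM, against 3.32, 0.743 and 0.323 CPM at week 2, and its root weeks overlapped. Its interaction of -5.05 (SE 1.36, adjusted p = 0.0488) did not hold with any 1 library left out (up to 0.117), apart from replicate 3 of the week 4 roots, replicate 2 of the week 2 roots and replicate 1 of the week 2 shoots. It was also lost under RLE scaling, without the 50 most counted genes and with no low-count filter. Its shoot rise was lost without week 2 shoot replicate 2 (adjusted p = 0.0516).

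For opposite changes, the rule took the 5 genes of each direction with the largest smaller change, and the values of ICE1, CYP78A9, lipoxygenase 8 and the GSTU6 gene are given above. Brevis radix-like 2 (BdiBd21-3.5G0270400, chromosome 5, 23760538 to 23767321), named after a root growth gene of Arabidopsis, had 10.9, 7.06 and 7.62 CPM in week 4 roots, against 3.45, 3.33 and 5.17 CPM in week 2 roots. In shoots it had 2.09, 1.08 and 1.91 CPM at week 4, against 2.86, 4.83 and 3.07 CPM at week 2, and the interaction was 2.17 (SE 0.44, adjusted p = 0.0134). Both organ calls were lost in part of the fits: the root call when replicate 1 of the week 4 roots or replicate 1 or 2 of the week 2 roots was left out (adjusted p up to 0.119), and the shoot call without week 4 or week 2 shoot replicate 2 (up to 0.0927) and under limma-voom.

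Cytochrome P450 714B2 (BdiBd21-3.1G0856200, chromosome 1, 63242044 to 63248814), in rice an enzyme that hydroxylates gibberellins, had 25.0, 13.0 and 12.7 CPM in week 4 roots, against 3.58, 4.83 and 6.84 CPM in week 2 roots. It had 2.79, 2.79 and 2.01 CPM in week 4 shoots, against 6.89, 4.37 and 4.15 CPM in week 2 shoots. The interaction was 2.75 (SE 0.47, adjusted p = 0.00624), and the shoot call was lost without any 1 shoot library other than week 2 shoot replicate 3, or without week 2 root replicate 2 (adjusted p up to 0.138), and under limma-voom. A plastid lactoylglutathione lyase (BdiBd21-3.3G0140100, chromosome 3, 8663958 to 8666626), which removes the toxic by-product methylglyoxal, averaged 7.46 ± 1.05 CPM in week 4 roots, against 3.69 ± 0.401 CPM in week 2 roots. It averaged 72.7 ± 7.01 CPM in week 4 shoots, against 164 ± 7.11 CPM in week 2 shoots, an interaction of 2.18 (SE 0.17, adjusted p = 0.000166).

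In the other direction, CUP-SHAPED COTYLEDON 2 (BdiBd21-3.1G0192900, chromosome 1, 11553463 to 11555732), a NAC factor that sets organ boundaries in Arabidopsis, had 6.51, 5.41 and 9.52 CPM in week 4 roots, against 14.0, 19.5 and 13.9 CPM in week 2 roots. It had 6.69, 8.94 and 7.52 CPM in week 4 shoots, against 3.02, 3.86 and 3.83 CPM in week 2 shoots. The weeks were apart in both organs, and the interaction was -2.26 (SE 0.33, adjusted p = 0.00261).

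Beta-amylase 1 (BdiBd21-3.1G1010000, chromosome 1, 73108837 to 73112427), which breaks down starch in plastids, had 6.51, 14.5 and 10.9 CPM in week 4 roots, against 33.1, 18.6 and 16.6 CPM in week 2 roots. Its shoot levels were 21.3, 22.3 and 23.0 CPM at week 4, against 12.0, 8.55 and 11.1 CPM at week 2. The interaction was -2.17 (SE 0.43, adjusted p = 0.0123). The root call did not hold without replicate 1 or 3 of the week 4 roots or replicate 1 of the week 2 roots (adjusted p up to 0.107), and the shoot call without week 4 or week 2 shoot replicate 2 or 3 (up to 0.0859). Inorganic pyrophosphatase 2 (BdiBd21-3.2G0619300) averaged 2.44 ± 0.322 CPM in week 4 roots, against 6.80 ± 2.19 CPM in week 2 roots, and 14.6 ± 5.44 CPM in week 4 shoots, against 5.18 ± 2.10 CPM in week 2 shoots. Its interaction was -2.98 (SE 0.50, adjusted p = 0.00566), and its root call did not hold without replicate 1 or 2 of the week 4 roots or replicate 1 of the week 2 roots (adjusted p up to 0.0675).

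**Figure D5:**
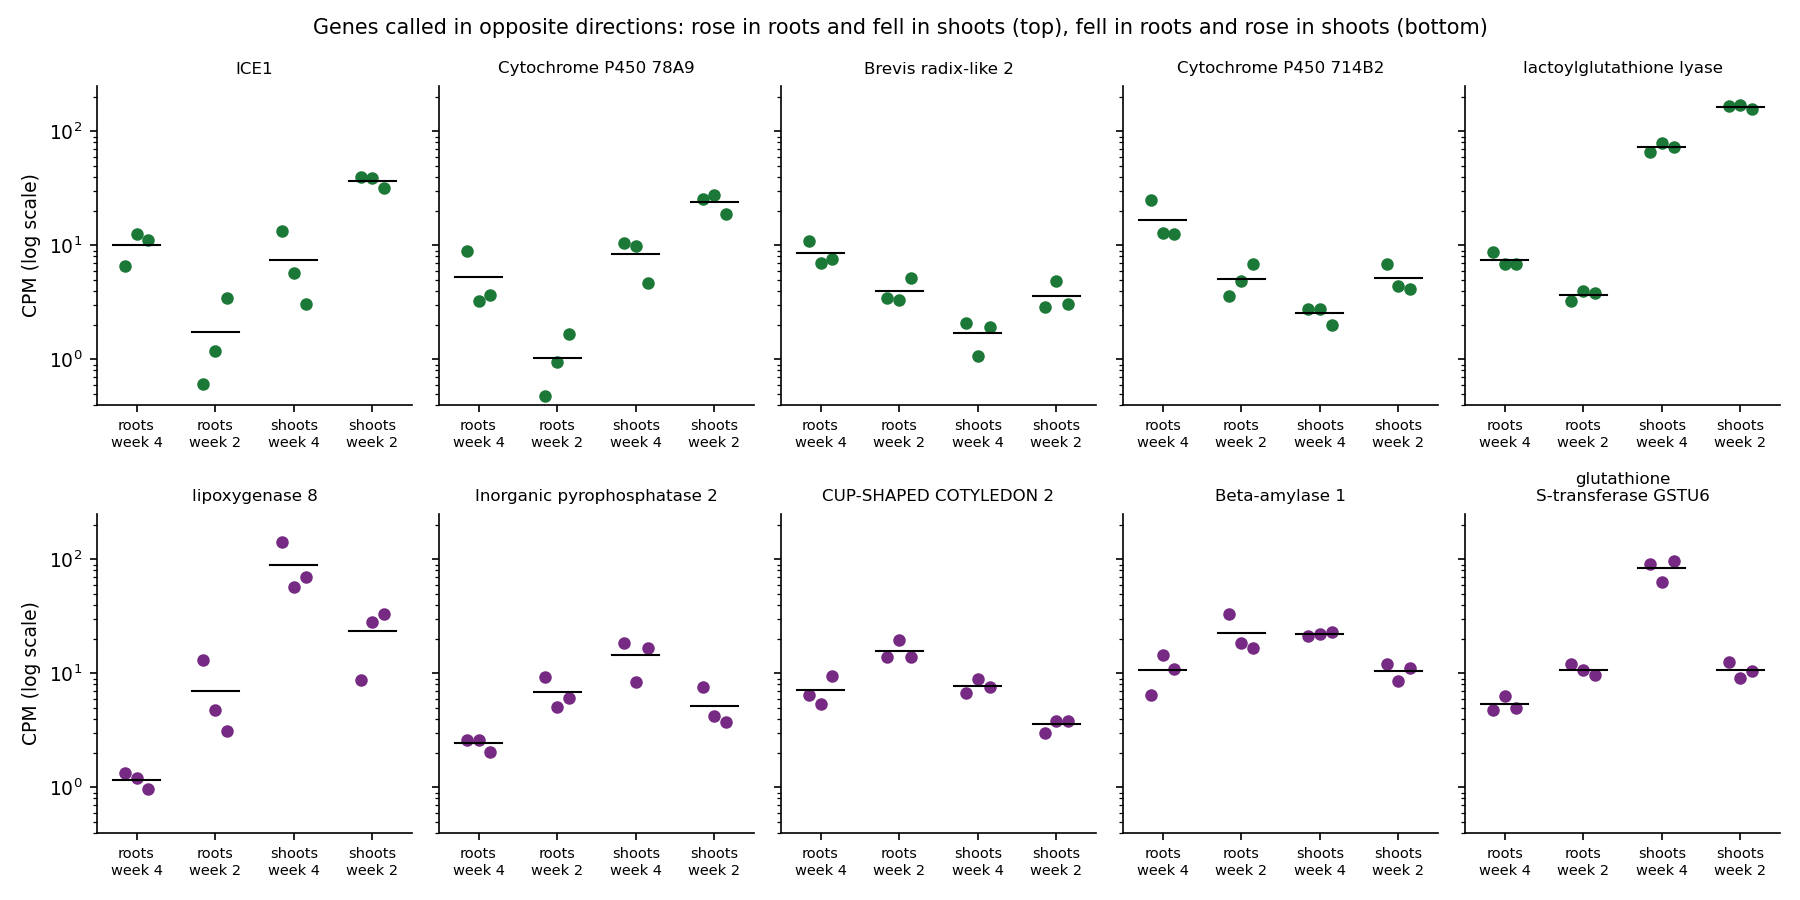
Level in CPM (log axis) of the 10 genes named for opposite changes, in each of the 12 libraries (points), with group means (lines). In the top row week 4 lies above week 2 in roots and below it in shoots, in the bottom row the reverse, and in all 10 genes the weeks do not overlap in either organ. The genes were chosen for called, opposite changes in both organs. That choice favours such separation, which is therefore no further support.

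Few or no genes of 3 further classes were called in the interaction. Of 191 tested cytosolic ribosomal proteins, which build the ribosomes outside the organelles, 160 fell in roots and 149 in shoots (83.8% and 78.0%, against 6.35% and 19.4% of all genes tested). The interaction was called for 2 (1.05%, against 8.52% of all genes tested). These 2 were 6 without week 2 shoot replicate 3 and 1 without any 1 of 6 other libraries. The median log2 change of the class was -0.68 in roots and -0.62 in shoots. Of 61 proteasome subunits, which degrade proteins, 13 fell in roots and 26 in shoots (21.3% and 42.6%, against the same 6.35% and 19.4%). In the interaction 0 were called by edgeR, with 3 positive and 1 negative at an unadjusted p under 0.05, 1 call by DESeq2 and 0 by limma-voom. Of 21 autophagy genes, which deliver cell content to the vacuole for recycling, 7 rose in roots and 10 in shoots (33.3% and 47.6%, against 12.4% and 14.5% of all genes tested). In the interaction 0 were called by any of the 3 tools, with 1 at an unadjusted p under 0.05.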

How the data were processed

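Messenger RNA of 12 libraries, 4 groups of 3, was sequenced, and the authors deposited one table of raw counts per gene (39068 genes). HISAT2 2.0.5, featureCounts 1.5.0-p3 and HTSeq 0.6.1 are named in the submitters' processing notes. The notes do not state the genome build, whether counting used strand, or how multi-mapped reads were handled; the labels name directional and non-directional library preparation without saying which was used. Coordinates are those of the table. Columns were matched to samples by tissue, week and replicate.

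Genes were filtered with filterByExpr (minimum count 10, minimum total 15), scaled by TMM and fitted with edgeR 4.0.16 (R 4.3.3) by robust quasi-likelihood F tests with 1 mean per group. The 3 contrasts tested were the change with age in roots, in shoots, and their difference. P-values were adjusted by Benjamini and Hochberg over all 26463 genes tested, and calls were made at 0.05. Standard errors are the log2 change divided by the square root of F. With 3 libraries a group, the p-values set each difference against the spread between these libraries. That spread was estimated from all 4 groups together, with information shared across genes. The script was tested on simulated data.

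Classes were matched by keywords in the deposited descriptions. Members, lists and keywords were chosen with earlier results of these data known, and subgroups within classes after their values were seen. Genes named by rule were the 5 highest and 5 lowest interactions and the 5 clearest opposite changes in each direction, among called and described genes with a mean of at least 1 CPM in every group, and up to 3 called members with the lowest p in each class described in depth. A mean of at least 1 CPM was required of these too. The alternatives were other scalings, count filters, DESeq2 1.42.0, limma-voom (limma 3.58.1), a replicate block, stricter thresholds and leaving out each library. No sequences were used here.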

Additional observations from a re-analysis of the deposited data

Results flagged for a closer look

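The difference between the organs was itself tested, as the interaction term of the edgeR fit, and 2254 genes passed. The groups of 3 libraries were too small for a test of outlying samples. Of the 42 named genes, the interaction calls of 35 held without any 1 library and those of 7 were lost in at least 1 case; the values below are log2 interactions, root change minus shoot change, and the standard errors and adjusted p-values are given with each gene above.

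Among plastid genes the interaction was 1.11 for glutamate-1-semialdehyde aminomutase, 1.07 for uroporphyrinogen decarboxylase 2 and 1.17 for divinyl chlorophyllide a 8-vinyl-reductase. It was 2.03 for chlorophyll a-b binding protein 1, 1.35 for the photosystem II 22 kDa protein, and 1.24 and 1.34 for photosystem I proteins 5 and 6. In the Calvin cycle and photorespiration it was 1.69 for sedoheptulose-1,7-bisphosphatase, 1.77 for glyceraldehyde-3-phosphate dehydrogenase A and 1.17 for the H protein of glycine cleavage. For the plastid ribosomal proteins L10, L13 and L24 it was 1.53, 1.38 and 1.48.

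Among light and hormone genes the value was 1.48 for PRR1, 1.72 for CONSTANS-LIKE 9, 0.83 for PRR95, 2.58 for LOGL10 and 0.79 for ORR1. The subtilisin-like proteases gave 2.42 for SBT1.8, 1.93 for SBT1.2 on chromosome 1 and 1.66 for SBT1.2 on chromosome 3. The replication genes gave 0.81 for the reductase subunit, 1.46 for DNA polymerase epsilon and 2.34 for MCM5. The glutathione S-transferases gave -3.98 and -1.85 for the GSTU6 genes of chromosomes 2 and 3, and -2.93 for GSTU1.

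Among the genes named by rule, the largest positive values were 4.86 for ICE1, 3.89 for CYP78A9, 3.85 for the amino acid epimerase, 3.55 for the pumilio homolog and 3.34 for nucleobase-ascorbate transporter 6. The largest negative values besides GSTU6 were -5.05 for the FCS-type zinc finger gene, -4.51 for lipoxygenase 8, -4.12 for the valine-tRNA ligase and -4.00 for CYP94C1. Opposite changes gave 2.75 for CYP714B2, 2.18 for lactoylglutathione lyase and 2.17 for Brevis radix-like 2, and -2.98 for inorganic pyrophosphatase 2, -2.26 for CUP-SHAPED COTYLEDON 2 and -2.17 for beta-amylase 1.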

How the results depend on the processing

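DESeq2 called 3782 genes in the interaction, 2683 more positive and 1099 more negative in roots, of which 2251 were among the 2254, and 65 genes that fell in roots and rose in shoots. At an adjusted p under 0.01 there were 614 (517 and 97), with 2028 calls in roots, 4918 in shoots, 70 and 4 opposite genes and 58 of the plastid classes. Against a fold change of 2 there were 61 (51 and 10), with 19 calls in roots, 899 in shoots, 0 and 0 opposite genes and 1 plastid gene. With 1 library left out the interaction gave 1318 to 3542 calls, 1048 to 2902 positive and 244 to 640 negative. The other ranges were 2533 to 5743 calls in roots, 6479 to 9327 in shoots, 155 to 216 genes that rose in roots and fell in shoots, 11 to 57 of the reverse, and 87 to 113 plastid genes.

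The positive share of the calls, 77.1%, lay between 70.9% and 84.2% over all settings, and the median interaction of all genes between 0.07 and 0.13. A replicate block gave 1958 calls, 1776 of them among the 2254. Deviations from the group mean of libraries with the same replicate number had correlations of -0.12 to 0.18 in 18 pairs, 4 over 0.1. Between roots and shoots of the same number they were 0.18, 0.07 and 0.11 at week 2 and -0.12, 0.04 and -0.11 at week 4. For unequal numbers they ranged from -0.14 to 0.08 at week 2 and from -0.096 to 0.17 at week 4. Whether equal numbers mark the same plants cannot be told from these values. Of the 42 named interactions, 38 held under every other scaling and count filter, 42 under DESeq2, 40 under limma-voom, 40 with the block (lost for MCM5 and ORR1), 26 at 0.01 and 7 against a fold change of 2. No named gene reversed the direction of a change that was called in the main or the other fit. Some changes that were not called did change sign. The root change of the FCS-type zinc finger gene was -0.93, and up to 0.11 with 1 library left out. The causes of these differences were not tested. Counting error limits genes of a few CPM most.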

Other observations

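With all 12 libraries, glycosyltransferases and jasmonate genes had more negative than positive interaction calls. Of 155 tested UDP-glycosyltransferases, which attach sugars to small molecules, 14 had a more negative and 4 a more positive change in roots, 11.6% in all, against 8.52% of all genes tested. In roots 18 rose (11.6%, against 12.4% of all genes), and in shoots 48 rose (31.0%, against 14.5%). The 14 became 7 to 17 with 1 library left out, and the 4 became 2 to 8. The 18 became 10 and 11 without replicates 1 and 2 of the week 4 roots. Of 45 jasmonate and TIFY genes, 13 rose and 4 fell in shoots (28.9% and 8.89%, against 14.5% and 19.4% of all genes). The 13 became 5 without week 4 shoot replicate 3, and 8, 7 and 6 without replicates 1, 2 and 3 of the week 2 shoots. Their 5 negative calls were 8 without week 4 shoot replicate 1 and 2 when replicate 2 or 3 of the week 2 roots, replicate 1 or 2 of the week 4 roots, replicate 1 or 2 of the week 2 shoots or replicate 3 of the week 4 shoots was left out. Their 2 positive calls were 3 without replicate 2 or 3 of the week 2 roots or replicate 1 of the week 4 shoots. In the fits with 2 negative calls, these did not outnumber the positive ones.

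Of 129 tested class III peroxidases, secreted enzymes that act on cell walls, 13 had a more positive and 1 a more negative change in roots, 10.9% in all, against 8.52% of all genes. In roots 6 fell (4.65%, against 6.35%), and in shoots 34 fell (26.4%, against 19.4%). The 6 became 14 and 13 without replicates 1 and 3 of the week 4 shoots, and 2 or 3 without week 4 root replicate 1 or 2 or week 2 root replicate 1 or 3. The 13 were 23 without week 4 shoot replicate 1, and 7 to 10 with any other 1 library left out. Homeobox factors, a family of developmental regulators, gave 13 positive and 1 negative call of 83. In roots 2 fell (2.41%, against 6.35% of all genes), and in shoots 31 fell (37.3%, against 19.4%).

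Of 70 tested genes of inflorescence and pollen, 3 had a more positive and 2 a more negative change in roots, 7.14% in all, which is close to the 8.52% of all genes. Of 11 tested genes of seed storage and oil bodies, 1 had a more positive and 1 a more negative change, too few genes to set against that share.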
